A study of Mus musculus with 14 samples.

Results

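Carmn encodes a long non-coding RNA found in smooth muscle, and the comparison described here set the jejunum muscularis of mice labelled as Carmn knockouts against that of wild-type mice. It used 6 of the 14 samples of the series: 3 bulk RNA-seq libraries labelled Carmn iKO (called KO here, with the tags m1, t1 and t4) and 3 labelled WT mTmG (called WT, with the tags t1, t6 and t7). The 6 were chosen by their names in the count table, and the other samples of the series were 6 bulk libraries and 2 libraries of single nuclei, all from colon. All mice were C57BL/6, and the muscularis, the outer muscle layers together with the nerves, vessels and interstitial cells between them, was separated by hand and flash frozen before total RNA was taken with Trizol. The mTmG reporter, a pair of membrane-bound fluorescent proteins placed in the Rosa26 locus, is named in the WT label only. The sources used here do not give the method or cell type of the deletion, ages, any treatment, or whether each tag stands for its own mouse, so p-values measure only the spread between these libraries.

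As background, the intestinal muscularis contracts when calcium enters the muscle cell or leaves its sarcoplasmic reticulum and calmodulin then activates myosin light chain kinase, while the thin filament proteins calponin, caldesmon and tropomyosin set how actin meets myosin. Carmn neighbours the microRNA genes Mir143 and Mir145a, which are known for keeping smooth muscle in its contractile state, and Bvht (Braveheart), a long non-coding RNA gene named for its role in cardiac differentiation. Muscle that leaves the contractile state is known for making more matrix and cytoskeletal proteins of motile cells.

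The libraries held between 24254905 (KO m1) and 44315104 (KO t4) counts, and the ranges of the 2 groups overlapped. Smooth muscle markers were abundant in all 6, with a summed level of 48810 to 94280 CPM (counts scaled to a common library size, by the TMM method). KO m1 stood apart from the other 5 libraries. On log2 CPM over 20886 genes it correlated with them at 0.90 to 0.933, against 0.951 to 0.974 among the others, and it was the highest or the lowest of the 6 libraries for 58.6% of genes, against 23.5% to 36.5% for each other library. A summary of expression between the tissues, over 128 genes that separated WT colon from WT jejunum by more than 2 on the log2 scale in every library pair, placed it at 0.55 of the way from WT jejunum (0) to WT colon (1), whereas KO t1 and KO t4 stood at 0.10 and 0.07. These genes go partly against its tissue label, so the results below are given with and without it. In colon, WT t1 and t6 held Lct, a gene of the jejunal epithelium, at 199 and 132 CPM, against 0.46 to 2.56 CPM in the other 4 colon libraries. The fit shares its spread over all 4 groups, so colon libraries also bear on the calls in jejunum, which numbered 25 without WT colon t1 and 26 without WT colon t6.

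Single positional genes are given here as examples. Hoxd13, Kcnip2 and Lct were named for being among the 6 genes highest or the 6 lowest in KO m1 against KO t1 and t4. They are therefore not a separate check of its position. Hoxd13, a homeobox gene of the hindgut, stood at 14.5 CPM in KO m1, at no more than 0.22 CPM in the other 5 jejunum libraries and at 74.1 to 149 CPM in colon. Pitx1, another hindlimb and hindgut factor, was at 18.7 CPM in KO m1 and at 0.27 to 0.71 CPM in the others. Kcnip2, a potassium channel subunit, was at 3.15 CPM in KO m1 against 74.0 to 137 CPM in the others, and Lct, the lactase gene of the small intestine, was at 3.55 CPM against 29.7 to 156. In these named genes KO m1 thus had more RNA of colon genes and less of jejunum genes than any other jejunum library. Hoxc8, another homeobox gene, was at 70.4 CPM in KO m1 and at no more than 2.90 CPM in each of the other 11 bulk libraries, colon included. Over 14 distal Hox and hindgut genes, a list drawn up after these values were seen, all 14 fold changes were above 0 with a median log2 fold change of 2.97, which became 0.05 without KO m1.

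**Figure D1:**
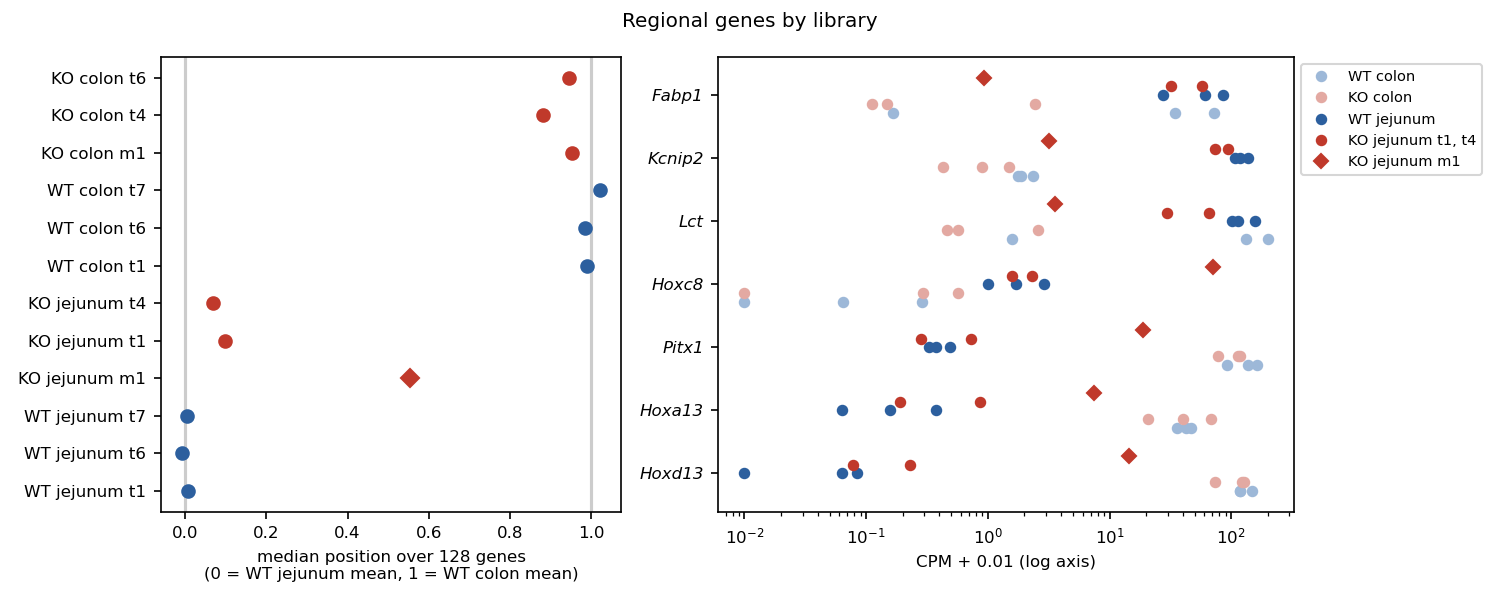
Left: median position of each of the 12 bulk libraries between the WT jejunum mean (0) and the WT colon mean (1) over 128 genes that separate the WT tissues. Right: CPM plus 0.01 on a log axis of 7 regional genes in each library, with KO jejunum m1 as a diamond. KO m1 sits at 0.55 on the left, between the tissues, while KO t1 and KO t4 lie at 0.10 and 0.07. The WT libraries chose the genes and set the scale, so WT jejunum lies near 0 by construction.

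Counts at the targeted gene went against the label. Carmn (ENSMUSG00000097324, annotated as lincRNA, chromosome 18, minus strand, 61649625 to 61665537 in GRCm38) stood at 996 CPM in KO m1, 817 in KO t1 and 909 in KO t4, and at 240, 206 and 326 CPM in WT t1, t6 and t7. All 3 libraries labelled KO were above all 3 WT libraries. The log2 fold change was 1.82 (SE 0.34), it missed the threshold by the edgeR quasi-likelihood test (Benjamini-Hochberg adjusted p = 0.0646), and without KO m1 it was 1.72 (adjusted p = 0.133). The exact permutation p was 0.1, the smallest possible. DESeq2 and limma voom put Carmn past the threshold. Which part of Carmn was removed is not stated, and reads from any remaining part check nothing, so directions below are therefore given for "libraries labelled KO".

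The neighbours of Carmn were lower instead. Bvht (chromosome 18, 61639542 to 61647472, plus strand) was at 5.03, 6.90 and 8.08 CPM in KO m1, t1 and t4 and at 42.8, 39.0 and 54.6 CPM in WT t1, t6 and t7, so that it fell by 2.76 on the log2 scale (SE 0.33, edgeR adjusted p = 0.0131), with -2.63 (adjusted p = 0.0446) without KO m1. The groups were far apart, but the call was lost without KO t4 or WT t7 (highest adjusted p 0.0532). Mir143 was at 0.36, 1.13 and 1.86 CPM in KO m1, t1 and t4 against 3.94, 4.84 and 10.9 in WT, and Mir145a at 0.30, 1.48 and 2.06 against 8.62, 5.86 and 11.8. Their groups did not overlap either, but neither passed the threshold (log2 fold changes -2.53 and -2.74, edgeR adjusted p = 0.114 and 0.125). KO m1 was the lowest library for all 3 genes and the highest for Carmn.

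**Figure D2:**
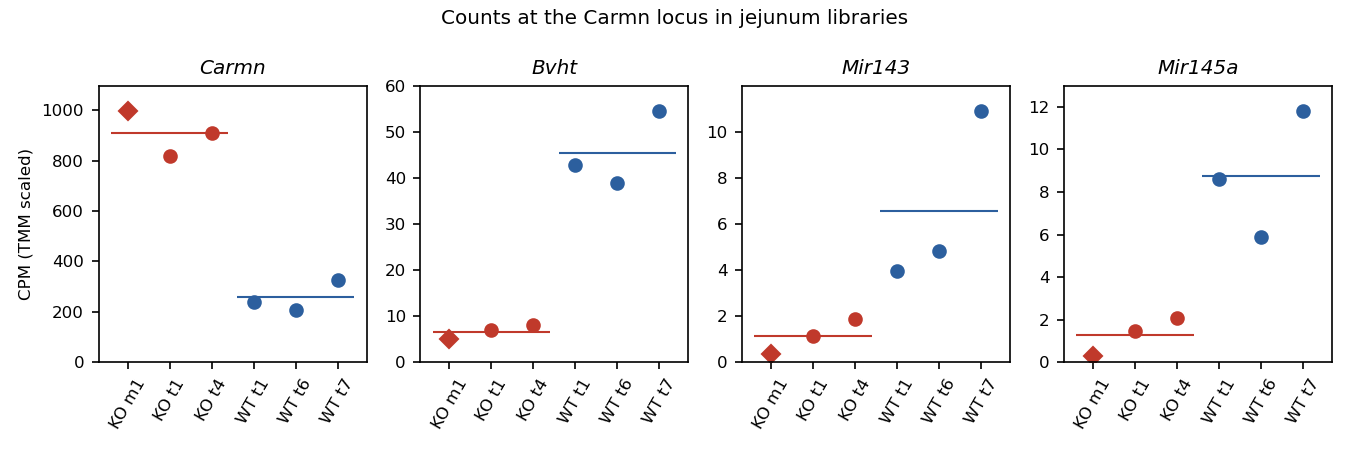
TMM-scaled CPM of Carmn and its 3 neighbours in each jejunum library, with horizontal lines at the group means, red for libraries labelled KO (KO m1 as a diamond) and blue for WT. Carmn lies between 817 and 996 CPM in the libraries labelled KO, above all WT libraries, and the 3 neighbours lie below all WT libraries.

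The reporter locus also differed. Gt(ROSA)26Sor, the non-coding transcript of Rosa26, fell to 2.94, 1.57 and 1.79 CPM in KO m1, t1 and t4 from 8.32, 9.99 and 11.2 CPM in WT (log2 fold change -2.24, SE 0.30, edgeR adjusted p = 0.0145, and 0.0149 without KO m1). Its exons overlap those of Thumpd3 on the other strand, and the use of strand in counting is not given, so its level is uncertain. Thumpd3 itself was not called (log2 fold change 0.51, adjusted p = 0.387).

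Across the transcriptome, 45 of 20886 genes (0.215%) passed the threshold of 0.05 on adjusted p. In the libraries labelled KO 26 rose (0.124%) and 19 fell (0.091%), and 2762 genes (13.2%) had an unadjusted p below 0.05, 7.52% higher and 5.7% lower. Of all fold changes 51.5% were above 0, and 47.2% without KO m1. The 2 groups were free of overlap in all 45 calls and in 22.2% of all genes tested (11.0% with KO above WT and 11.2% with KO below). Gap43, a growth cone protein of neurons and glia, had the smallest p. It was at 290, 211 and 212 CPM in KO m1, t1 and t4 and at 34.1, 33.6 and 21.4 CPM in WT, means of 238 ± 45.4 and 29.7 ± 7.18 (SD, n = 3 each). All libraries labelled KO lay above all WT libraries, 8.0-fold on the fitted scale (log2 fold change 3.0, SE 0.26, edgeR adjusted p = 0.0028). Gap43 was the 1 call that held without each of the 12 libraries in turn.

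The number of calls rested on few libraries and on the tool. Without KO m1 there were 26 calls (0.12% of 21639 genes), of which 21 were among the 45, without KO t1 41 with 23 shared, without KO t4 2, and without a WT jejunum library 4 to 8. DESeq2 called 805 genes (3.85%) and limma voom 87 (0.417%), or 971 (4.65%) with sample quality weights, and all 45 were among those of DESeq2.

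**Figure D3:**
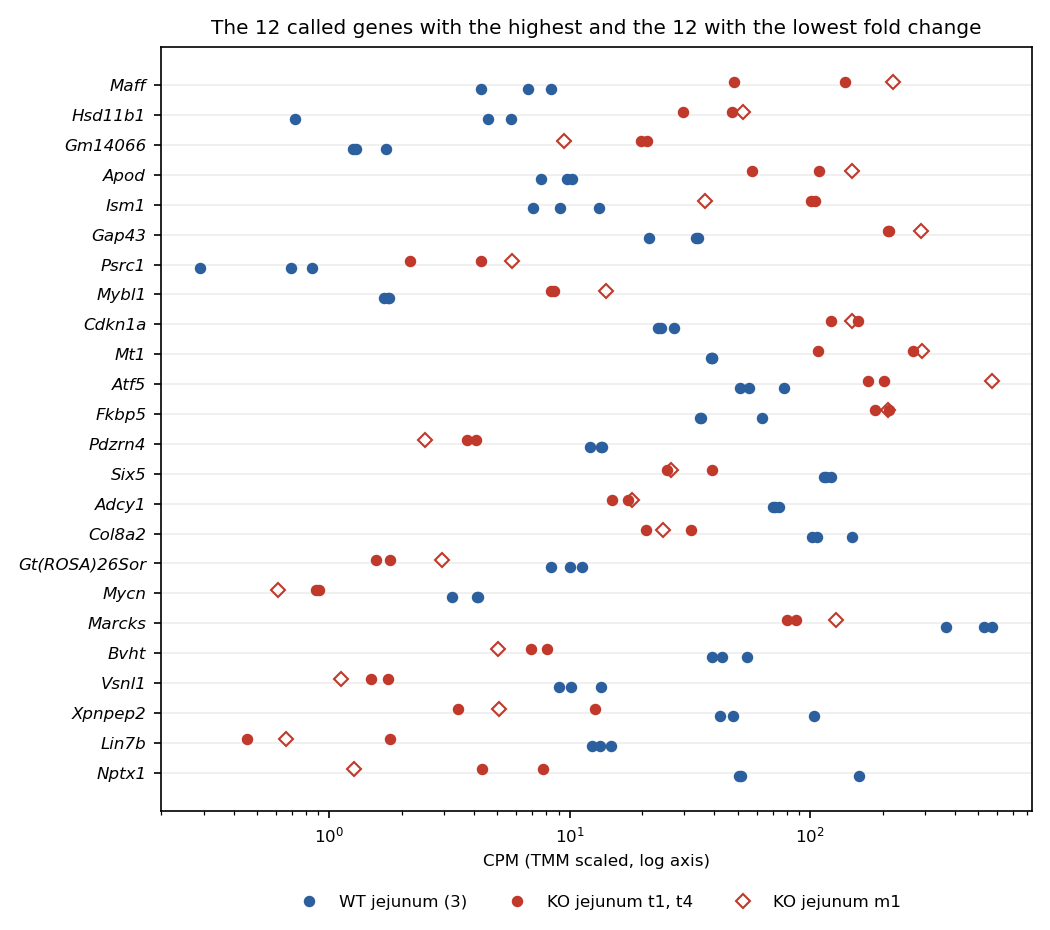
CPM on a log axis in each jejunum library for the top 12 and bottom 12 called genes by fold change (average log2 CPM of at least 1). Filled red points are KO t1 and t4, open diamonds KO m1 and blue points WT. In each row the 3 libraries labelled KO lie on 1 side of the 3 WT libraries, which was a condition for being shown.

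The 26 higher genes included transcription factors and a cell cycle inhibitor. Maff, a small Maf transcription factor that pairs with antioxidant regulators, stood at 221, 48.1 and 139 CPM in KO m1, t1 and t4 against 8.32, 6.73 and 4.29 CPM in WT (log2 fold change 4.40, SE 0.53, edgeR adjusted p = 0.0131). Its 3 libraries labelled KO ranged widely but all exceeded WT. Cdkn1a, the cell cycle inhibitor p21 (chromosome 17, 29090976 to 29100727, GRCm38), was at 150, 158 and 122 CPM against 27.1, 24.0 and 23.4 (2.53, SE 0.26, adjusted p = 0.00766), and its exons overlap those of a gene on the other strand. Atf5, a stress-response factor, was at 573, 203 and 174 CPM against 55.7, 78.1 and 51.3 (2.36, adjusted p = 0.048). For Atf5 the log2 fold change was 1.59 without KO m1, with an adjusted p of 0.0406. Sptlc3, a subunit of the enzyme that starts sphingolipid synthesis, had 97, 160 and 178 counts in KO m1, t1 and t4 and 0 in all 3 WT libraries, which is at least 143-fold higher against a floor of 3 counts over the WT group.

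Further higher calls had varied functions. Apod, a lipid-binding lipocalin (149, 57.5 and 109 CPM against 10.2, 9.70 and 7.57), and Hsd11b1, which regenerates active glucocorticoid (52.6, 29.7 and 47.5 CPM against 5.71, 4.57 and 0.72), had log2 fold changes of 3.52 and 3.57. Ism1, a secreted matrix-associated protein, was at 36.5 CPM in KO m1, 101 in KO t1 and 105 in KO t4 against 7.03 to 13.2 CPM in WT (3.05, adjusted p = 0.028), so here KO m1 was the lowest of its group. P2ry14, a receptor for UDP-sugars, was at 79.1, 67.5 and 60.1 CPM against 23.2, 21.8 and 23.6 (1.59, SE 0.21, adjusted p = 0.0145). Tmem100, Mchr1, Slc38a4, Pak3, Bach2, Gbe1 and Btbd1 rose by 1.05 to 2.01 on the log2 scale, and Mybl1 and Psrc1 by 2.57 and 2.73. Gm14066, a processed transcript (chromosome 2, 139256876 to 139677714, GRCm38), rose by 3.55. Sptlc3, given above, lies within its span on the other strand (139493913 to 139637674). Ism1 lies directly beside it (139678178 to 139758581). These higher calls thus share 1 stretch of the genome, and whether they changed independently was not tested.

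The 19 lower calls included the genes that follow. Nptx1, a neuronal pentraxin, was at 1.27, 7.72 and 4.32 CPM in KO m1, t1 and t4 against 50.8, 160 and 51.6 CPM in WT (log2 fold change -4.29, SE 0.65, edgeR adjusted p = 0.0345). Vsnl1, a neuronal calcium sensor (chromosome 12, 11325242 to 11436613, GRCm38), was at 1.12, 1.76 and 1.49 CPM against 10.1, 13.5 and 9.0 (-2.89, SE 0.32, adjusted p = 0.00784). Both were far below every WT library. Adcy1, a calmodulin-stimulated adenylyl cyclase, was at 18.2, 17.5 and 15.0 CPM against 70.2, 74.2 and 71.7 (-2.09, SE 0.23, adjusted p = 0.00768), with little spread in either group. Vsnl1 and Adcy1 each lost the call only without KO t4 among the 12 libraries (adjusted p 0.051 for each).

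Genes of cell contact and matrix among the lower calls were Col8a2, a network-forming collagen (24.5, 32.1 and 20.8 CPM against 107, 150 and 102), Nid2, a basement membrane linker (13.9, 15.5 and 13.6 against 43.4, 43.1 and 66.2), and the adhesion molecule Alcam (57.3, 49.6 and 59.5 against 191, 111 and 202). Their log2 fold changes were -2.21, -1.83 and -1.60, and all 3 stayed called without KO m1. Bmp4, a bone morphogenetic protein made by gut mesenchyme, fell to 10.5, 13.2 and 13.3 CPM from 44.7, 50.1 and 38.4 (-1.85, adjusted p = 0.0419, and 0.106 without KO m1). Marcks, a substrate of protein kinase C that binds actin, fell to 128, 80.3 and 87.3 CPM from 366, 529 and 569 (-2.31, adjusted p = 0.0262). Six5, a homeobox factor, fell by 1.95, Flrt2 and the guidance cue Sema3e by 1.80 and 1.13, and Mycn by 2.25 on the log2 scale. Lin7b and Xpnpep2 fell by 3.80 and 3.19, and the exons of Lin7b overlap 2 genes on the other strand.

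Of the 45 calls, 24 were lost without KO m1, 15 higher and 9 lower genes, with adjusted p between 0.0629 and 0.121. The higher ones were Sptlc3, Gm15247, Hsd11b1, Psrc1, Mybl1, Mt1, Fkbp5, Tmem100, Mchr1, Slc38a4, Errfi1, Gclc, Pak3, Bach2 and Gbe1. The lower ones were Lin7b, Xpnpep2, Mycn, Pdzrn4, Bmp4, Flrt2, Pyurf, Sema3e and Socs6. None changed sign, and their fold changes moved by a median of 0.12 and at most 0.35 on the log2 scale, so these calls were lost at nearly the same size of change, in a fit with 1 library fewer. Genes called only without it were all lower: Shisa6, Dpp10, Hebp2, mt-Co2 and Gm10222. Of these mt-Co2, a mitochondrially encoded oxidase subunit, was at 183 CPM in KO m1 but 70.8 and 63.1 in KO t1 and t4, against 139 to 177 CPM in WT (log2 fold change -0.57, and -1.25 without KO m1, adjusted p = 0.0446).

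Glucocorticoid-responsive genes were the list with the most calls, where 0.215% of all genes tested were called. Here and in the lists below, members were chosen with earlier results of these data known. Some called genes, such as Mt1 and Maff, are in more than 1 list, so the counts are not separate from each other. Of 30 tested, 27 were higher in the libraries labelled KO, 6 were called, all higher, and 19 had all libraries labelled KO above WT (2 below). Over all genes tested 11.0% lay above WT without overlap and 11.2% below. Counts without overlap in the lists below, with all 6 libraries, are to be read beside these shares. At an unadjusted p below 0.05, 7.52% of all genes tested were higher and 5.7% lower by edgeR. DESeq2 called 3.85% of them, and list counts of these 2 kinds are to be read beside these values. The median log2 fold change of the glucocorticoid list was 1.08, and 1.12 without KO m1, against 0.02 and -0.03 over all genes tested. The called members were Hsd11b1, Apod, Cdkn1a, Mt1, Fkbp5 and Errfi1. Fkbp5, a chaperone of the glucocorticoid receptor, was at 211, 187 and 212 CPM in KO m1, t1 and t4 against 34.9, 63.0 and 35.0 CPM in WT (2.20, SE 0.32, adjusted p = 0.0223). Errfi1, an inhibitor of the EGF receptor, was at 88.8, 85.2 and 74.9 CPM against 36.6, 30.2 and 23.9 (1.46, adjusted p = 0.022). Uncalled members included Tsc22d3 (0.92, adjusted p = 0.283), Sgk1 (0.95, 0.356) and Ddit4 (2.24, 0.0971). The 2 receptor genes themselves lay the other way, Nr3c1 at 74.8 to 111 CPM against 136 to 177 (-0.68, adjusted p = 0.185) and Nr3c2 at 11.8 to 38.2 against 39.5 to 53.8 (-1.01, 0.416). Without KO m1 the count of calls in this group was 2 of 30.

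Immediate early genes, which respond quickly to growth factors, stretch and stress, were mostly higher. Of 34 tested, 31 were higher, 19 did not overlap, all higher, and 2 were called, Maff and the kinase Sik1 (78.1, 112 and 100 CPM against 41.7, 42.1 and 33.0; 1.32, adjusted p = 0.0419). Their median was 0.97, and 1.08 without KO m1, where both calls held. Fos was at 41.7, 51.7 and 149 CPM in KO m1, t1 and t4 against 11.0 to 19.0 CPM in WT (2.35, edgeR adjusted p = 0.19), and Junb at 177, 79.0 and 260 against 28.1 to 51.7 (2.05, 0.143). Jun did not follow (152, 131 and 183 CPM against 101 to 246, log2 fold change -0.03). KO t4 was the highest library for Fos, Junb and Egr1.

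Metal and antioxidant genes had 3 calls among 31, Maff, Mt1 and Gclc, with 25 higher, 11 not overlapping above WT and 1 below. Their median, 0.30 (0.22 without KO m1), was smaller than in the 2 groups above. Mt1 and Mt2 encode metallothioneins, small metal-binding proteins that zinc and glucocorticoid induce. Mt1 was at 291, 108 and 269 CPM in KO m1, t1 and t4 and at 38.9, 39.1 and 38.6 CPM in WT (2.52, SE 0.41, edgeR adjusted p = 0.0419). Mt2 was at 231, 46.3 and 276 CPM against 20.3, 19.0 and 24.1 (3.12, SE 0.72, adjusted p = 0.114), with KO t1 the lowest of its group for both genes. Gclc, the catalytic subunit of glutathione synthesis, was at 69.2, 52.9 and 94.5 CPM against 22.1, 35.0 and 25.1 (1.4, adjusted p = 0.0478), and the ferritin chain Fth1 at 3872, 2538 and 4569 against 1141 to 1607 (1.37, 0.074).

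The promoters of 4 of these genes are shown as examples, chosen because each holds a match to a known element. They are RefSeq sequences of GRCm38.p6, from 250 bases before to 50 after a start site on the plus strand, and a promoter was found there for 31 of the 45 called genes. In the metallothionein promoters the capitals mark each match to the core of the metal response element (TGCACNC or TGCGCNC, either strand). Mt1 lies at chr8:94178839-94179138 and Mt2 at chr8:94172368-94172667.
Mt1: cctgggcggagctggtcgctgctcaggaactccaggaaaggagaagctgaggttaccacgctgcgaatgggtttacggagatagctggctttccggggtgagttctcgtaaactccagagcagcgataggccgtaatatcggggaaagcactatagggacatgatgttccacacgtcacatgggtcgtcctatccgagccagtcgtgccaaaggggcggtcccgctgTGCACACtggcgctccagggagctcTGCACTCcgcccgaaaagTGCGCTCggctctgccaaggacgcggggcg
Mt2: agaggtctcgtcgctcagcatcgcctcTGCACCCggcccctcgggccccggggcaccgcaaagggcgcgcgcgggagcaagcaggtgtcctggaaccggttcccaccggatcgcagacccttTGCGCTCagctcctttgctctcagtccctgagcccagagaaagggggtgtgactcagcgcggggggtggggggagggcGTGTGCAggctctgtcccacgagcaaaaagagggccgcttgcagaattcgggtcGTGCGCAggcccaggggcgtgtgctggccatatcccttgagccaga

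Mt1 held 3 matches and Mt2 4, where 25.7% of all 32851 promoters searched held at least 1. By gene the metal element was in 38.9% of the 18 higher and 30.8% of the 13 lower calls with a promoter, in 32% of 25 metal and antioxidant genes and in 28.2% of all 27025 genes. In the next pair the capitals mark the full cyclic AMP response element (TGACGTCA, which reads the same on both strands), held by 1.79% of all promoters and by 2 of the 18 higher and 0 of the 13 lower called genes with a promoter. Maff is shown at chr15:79347270-79347569 and Errfi1 at chr4:150854820-150855119.
Maff: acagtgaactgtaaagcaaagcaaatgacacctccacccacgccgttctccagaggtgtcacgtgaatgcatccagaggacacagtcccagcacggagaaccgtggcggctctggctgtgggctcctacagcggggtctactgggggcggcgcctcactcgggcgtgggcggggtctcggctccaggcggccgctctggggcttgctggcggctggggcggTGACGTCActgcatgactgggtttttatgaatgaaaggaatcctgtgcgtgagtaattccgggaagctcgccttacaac
Errfi1: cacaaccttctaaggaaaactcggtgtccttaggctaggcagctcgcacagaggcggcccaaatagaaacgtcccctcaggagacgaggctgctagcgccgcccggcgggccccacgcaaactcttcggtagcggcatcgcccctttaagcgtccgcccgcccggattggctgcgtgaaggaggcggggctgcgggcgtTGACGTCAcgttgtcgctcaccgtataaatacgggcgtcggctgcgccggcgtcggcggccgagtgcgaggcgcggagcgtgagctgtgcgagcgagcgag
The cyclic AMP element was in 15.4% of 26 immediate early genes and in 2.03% of all genes with a promoter. The AP-1 site (TGANTCA) was in 5.56% of the higher calls, in 0 of 26 immediate early genes and in 8.97% of all genes with a promoter. The antioxidant response element (TGACNNNGC) was in 44% of 25 metal and antioxidant genes and in 14% of all genes. It was in 16.7% of the higher and 7.69% of the lower calls. None of these shares was tested. The glucocorticoid response element was searched only as the exact full palindrome, AGAACA and TGTTCT with 3 bases between. It was in 0 of the 18 higher calls, in 1 of 26 glucocorticoid-responsive genes and in 3 of all promoters. With so rare a match, 0 of 18 says little. A match describes these letters only, and no binding was measured.

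Among the myosin and thin filament lists edgeR called 1 gene, Cnn2, and DESeq2 called 2 thin filament and 5 myosin genes. Of 22 myosin genes and regulators 11 were higher and the median was 0.02 (-0.08 without KO m1). None was called by edgeR (4 higher and 4 lower at an unadjusted p below 0.05), and DESeq2 called 2 higher and 3 lower. Myh11, the smooth muscle myosin heavy chain, was at 17354, 16777 and 15188 CPM in KO m1, t1 and t4 against 13528 to 15948 CPM in WT (0.13, edgeR adjusted p = 0.899), and Acta2, smooth muscle actin, at 8465, 5936 and 6930 against 6080 to 6741 (0.15, 0.833). Mylk, the light chain kinase, was below WT in all 3 libraries labelled KO, at 3957, 6643 and 4768 CPM against 9660 to 10884 (-0.98, adjusted p = 0.197), as was the small heat shock protein Hspb6 at 106 to 266 against 412 to 480 (-1.17, 0.134). Nonmuscle genes of the same list lay the other way: Myh10 at 233 to 330 CPM against 125 to 156 (1.08, 0.083) and Myl12a at 204 to 514 against 99.1 to 116 (1.69, 0.0736).

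Thin filament genes were higher in 15 of 18, with a median of 0.58 that became 0.20 without KO m1, and KO m1 was the highest of the 6 libraries for 14 of the 18. Cnn2, the calponin of nonmuscle and migrating cells, was the 1 call by edgeR (DESeq2 called 2, both higher), at 559, 382 and 345 CPM against 140, 139 and 132 (1.64, SE 0.23, edgeR adjusted p = 0.0188, and 0.0446 without KO m1). Tpm4, a cytoskeletal tropomyosin, was at 1149, 242 and 347 CPM against 78.9 to 99.4 (2.71, adjusted p = 0.0736, and 1.71 without KO m1). The contractile gene Tagln rested on KO m1: it was at 13728 CPM in it and at 3069 and 3970 in KO t1 and t4, against 2765 to 3267 in WT (1.19, and 0.18 without KO m1). The fibronectin receptor chain Itga5 was at 1794, 729 and 1198 CPM against 184 to 222 (2.57, adjusted p = 0.0867).

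Receptors and channels that drive or relax the muscle were more often lower than higher. Among 34 receptors and relaxation enzymes 11 were higher, 11 had all libraries labelled KO below WT against 4 above, and the median was -0.26 (-0.23 without KO m1). Over all genes tested 11.2% lay below WT without overlap and 11.0% above, so the 4 above were near that share. P2ry14, given above, was the 1 call. Chrm2, the most abundant muscarinic receptor subtype of gut muscle, was at 105, 193 and 198 CPM in KO m1, t1 and t4 against 449, 314 and 356 CPM in WT (-1.17, SE 0.26, edgeR adjusted p = 0.0971). Pde5a, which breaks down cyclic GMP, was at 166, 282 and 203 against 398 to 434 (-0.93, 0.197), and Gucy1b1, a subunit of the nitric oxide receptor, at 66.8 to 103 against 125 to 138 (-0.66, 0.179). The purine channels P2rx4 (41.4 to 42.4 CPM against 17.6 to 26.1) and P2rx5 (4.10 to 4.31 against 0.69 to 1.25) were above WT in all libraries labelled KO, at adjusted p of 0.0606 and 0.0883. Of 28 potassium channel genes 7 were higher (median -0.30), none was called by edgeR (1 higher and 1 lower at an unadjusted p below 0.05) and DESeq2 called 1, higher. Of 23 genes of the sarcoplasmic reticulum store 9 were higher (median -0.22), none was called by edgeR (1 higher and 4 lower at an unadjusted p below 0.05) and DESeq2 called 1 in each direction. The calcium buffer Casq2 was at 37.9 to 50.3 CPM against 76.1 to 120 (-1.08, 0.113). The summed level of these 23 was 3360 to 4822 CPM in the libraries labelled KO and 4484 to 5339 in WT. The counts of these channel and store genes are to be read beside the shares over all genes tested. Those were 7.52% higher and 5.7% lower at an unadjusted p below 0.05 by edgeR, and 3.85% called by DESeq2.

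Smooth muscle transcription factors were nearly even, with 14 of 33 higher, 1 call (Six5) and a median of -0.05 that became 0.05 without KO m1. Myocd, the coactivator myocardin, was at 224 to 301 CPM against 155 to 200 (0.56, edgeR adjusted p = 0.374), and its partner Srf at 231 to 302 against 318 to 430 (-0.47, 0.371).

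Matrix genes were higher in 48 of 57, with 23 not overlapping above WT and 6 below and 2 calls in opposite directions, Ism1 and Nid2. The called collagen gene Col8a2, which fell, is not in this list. The median was 0.63 but 0.21 without KO m1, and KO m1 was the highest of 6 for 41 of the 57. Fn1, fibronectin, was at 13949, 4828 and 4380 CPM in KO m1, t1 and t4 against 1356, 1210 and 1288 CPM in WT (2.59, edgeR adjusted p = 0.0777, and 1.82 without KO m1). Every library labelled KO thus exceeded WT for Fn1, and it missed the threshold in both fits. Eln, elastin, was at 1644 CPM in KO m1 and at 68.1 and 73.5 in the other 2, against 44.8 to 49.0 (3.68, and 0.58 without KO m1), and periostin (Postn) at 2744 CPM in KO m1 and 171 to 265 in the other 5 (2.10, and -0.28 without KO m1, a change of sign). Ccn2, a matricellular target of mechanical signalling, was at 656, 161 and 181 CPM against 49.8 to 68.6 (2.51, adjusted p = 0.144).

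**Figure D4:**
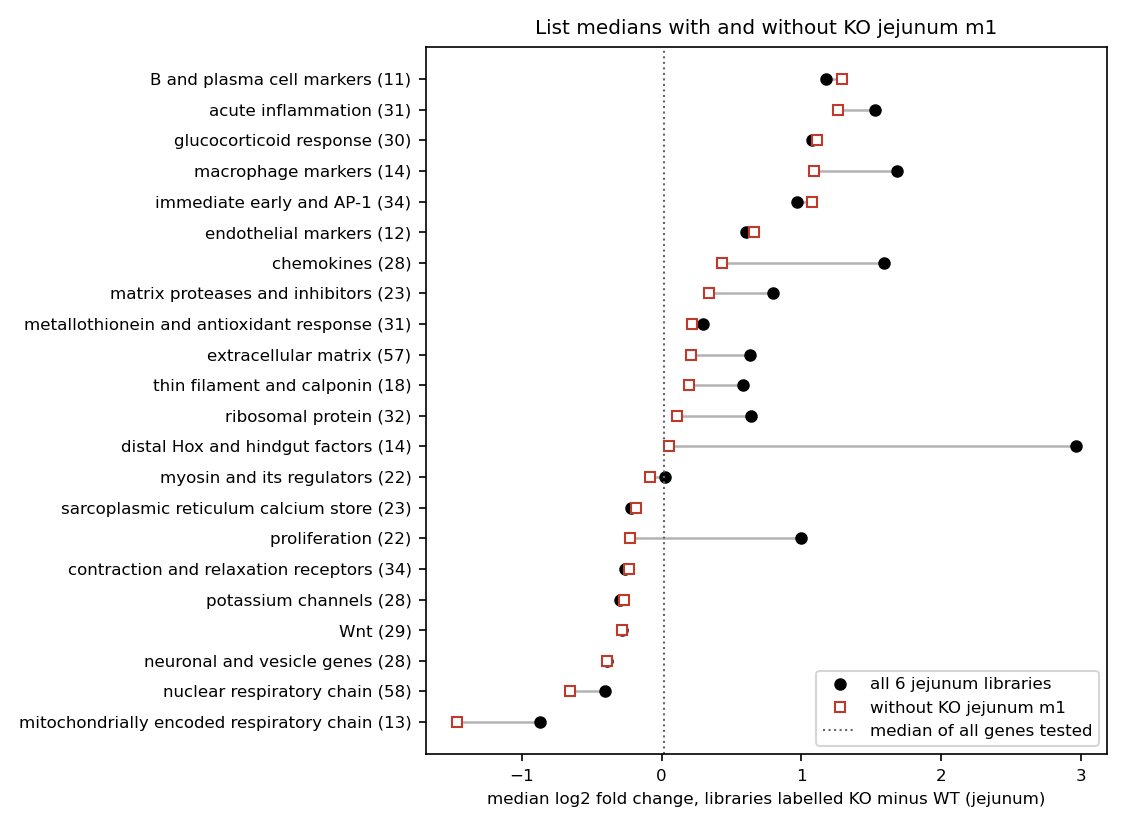
Median log2 fold change in jejunum, libraries labelled KO minus WT, for 22 gene lists (number of genes tested in brackets), from all 6 libraries (black circles) and without KO m1 (open red squares). The dotted line is the median of all genes tested. The glucocorticoid list stays near 1.1 in both, while proliferation moves from 1.0 to -0.23 and the distal Hox list from 2.97 to 0.05.

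Respiratory chain genes were lower almost without exception, although none was called by edgeR with all libraries (8 mitochondrial and 24 nuclear genes lower, and 0 higher, at an unadjusted p below 0.05). All 13 mitochondrially encoded genes had a fold change below 0 (median -0.87, and -1.46 without KO m1), 5 of them with no overlap. Mitochondrial transcripts made up 1.17% to 2.07% of counts in the libraries labelled KO and 2.71% to 3.59% in WT, with no overlap (exact permutation p = 0.1, the smallest possible). Of 58 nuclear genes of the chain 57 were lower, 19 with no overlap and none above WT, with a median of -0.41. Without KO m1 all 58 were lower, 56 with no overlap, at a median of -0.65, where 17.2% of all genes tested lay below WT without overlap. Sdhc, a subunit of complex II, was at 103, 113 and 95.8 CPM against 186, 202 and 153 (-0.79, edgeR adjusted p = 0.0754), and mt-Nd2 at 1152, 697 and 557 against 1520 to 2379 (-1.24, 0.116). DESeq2 called 9 nuclear and 2 mitochondrial members, all lower.

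Neuronal and vesicle genes held 5 calls among 28, Gap43 higher and Nptx1, Lin7b, Vsnl1 and Marcks lower, where 0.215% of all genes tested were called. The members were chosen with earlier results of these data known, so this count cannot show an excess among neuronal genes. Of the 28, 6 were higher, with a median of -0.39 in both fits. General neuronal genes were not called: Snap25 was at 53.9 to 59.2 CPM against 55.8 to 76.5 (-0.16, edgeR adjusted p = 0.75) and Tubb3 at 53.3 to 72.4 against 81.8 to 107 (-0.62, 0.258). In bulk RNA, fewer cells of a type and less RNA per cell cannot be told apart. The summed level of 21 enteric neuron markers was 2085 CPM in KO m1 and 746 and 823 in the other 2 libraries labelled KO, against 717 to 987 in WT, and that of 11 enteric glia markers was 165 to 257 against 224 to 248.

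Inflammatory genes were higher in 28 of 31, with 14 not overlapping above WT and none below, and a median of 1.53 (1.26 without KO m1). None was called by edgeR (9 higher and 0 lower at an unadjusted p below 0.05), and DESeq2 called 3, all higher. The shares over all genes tested were 7.52% higher and 5.7% lower at that p, and 3.85% called by DESeq2. Lcn2, a neutrophil-associated lipocalin, was at 176, 19.0 and 79.0 CPM in KO m1, t1 and t4 against 5.6, 5.10 and 0.75 in WT (4.59, SE 1.29, edgeR adjusted p = 0.177), and the vascular adhesion molecule Vcam1 at 65.6, 36.6 and 39.2 against 18.7, 20.9 and 7.49 (1.59, 0.113). Marker lists of other cells differed in direction. Of 14 macrophage markers 13 were higher, 10 without overlap, and their summed level was 1071 to 2706 CPM against 266 to 893. The complement genes C1qa, C1qb and C1qc were at 98.8 to 304 CPM against 23.4 to 83.9. Of 12 endothelial markers 11 were higher, 4 without overlap. Their sum was 391 to 670 CPM against 340 and 362 in WT t1 and t6 and 158 in WT t7. WT t7 was also the lowest library for the macrophage sum. The sum of 11 B and plasma cell markers was 711 to 1284 CPM against 514 to 841. Of 9 pericyte and vascular muscle markers 6 were higher, but their summed level was lower, at 2202 to 3490 CPM against 4132 to 5512. Of 12 T lymphocyte markers 6 were higher, of 5 erythrocyte markers 1, and of 4 mast cell markers 0. By edgeR no marker of macrophages, endothelium or B cells was called, with 7, 4 and 1 of them higher at an unadjusted p below 0.05, and DESeq2 called 6, 1 and 0, all higher. The part of these cells in the results on inflammatory genes was not tested.

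Cell cycle genes were high in KO m1 and not in the other 2 libraries labelled KO. Of 22 proliferation genes it was the highest of 6 libraries for 20, with a summed level of 432 CPM against 110 to 151 CPM in the other 5. The median went from 1.0 to -0.23 without it, and none was called by edgeR (2 higher at an unadjusted p below 0.05) or DESeq2. Mki67 was at 41.2 CPM in KO m1 and at 6.16 to 11.2 in the other 5. Among ribosomal protein genes all 32 were highest in KO m1, with a median of 0.64 that became 0.11.

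The jejunum changes were set beside those of colon, from 6 other libraries. Of these, 5 carry the tag of a jejunum library of the same genotype, and whether such pairs come from 1 mouse is not given. Colon thus cannot be taken as an independent repeat. The sign in colon was the same for 42 of the 45 calls in jejunum. The share of matching signs over all genes tested is not given here. In colon 81 genes (0.388%) were called, and 12 of the 45 were called in both. These 12 were Gap43, Apod, Fkbp5, Mt1, Errfi1, Gclc and Sik1, all higher, and Bvht, Xpnpep2, Marcks, Gt(ROSA)26Sor and Six5, all lower. The test of the difference itself called no gene by edgeR (869 at an unadjusted p below 0.05, 4.16% of those tested, and 37 calls by DESeq2). By edgeR the smallest p was that of P2ry14, which was at 60.1 to 79.1 CPM against 21.8 to 23.6 in jejunum and at 14.2 to 23.1 against 20.1 to 28.5 in colon (difference 1.96, SE 0.30, edgeR adjusted p = 0.353). Next were Casq2, at -3.46 in colon and -1.08 in jejunum (difference 2.38, adjusted p = 0.353), and Vsnl1 and P2rx5 (-2.48 and 3.41, adjusted p = 0.582 each). Of the 45 calls, 27 had an unadjusted p below 0.05 in the difference, among them Vsnl1, Nptx1, Psrc1 and Alcam, whose colon values were between -0.40 and -0.23. The 45 were selected by their jejunum change, which is part of this difference, so their share cannot be set against 4.16%. In WT colon Nptx1 was at only 1.33 to 2.26 CPM and Vsnl1 at 2.13 to 2.34. In WT jejunum they were at 50.8 to 160 and 9.0 to 13.5 CPM, so a fall in colon had little room.

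**Figure D5:**
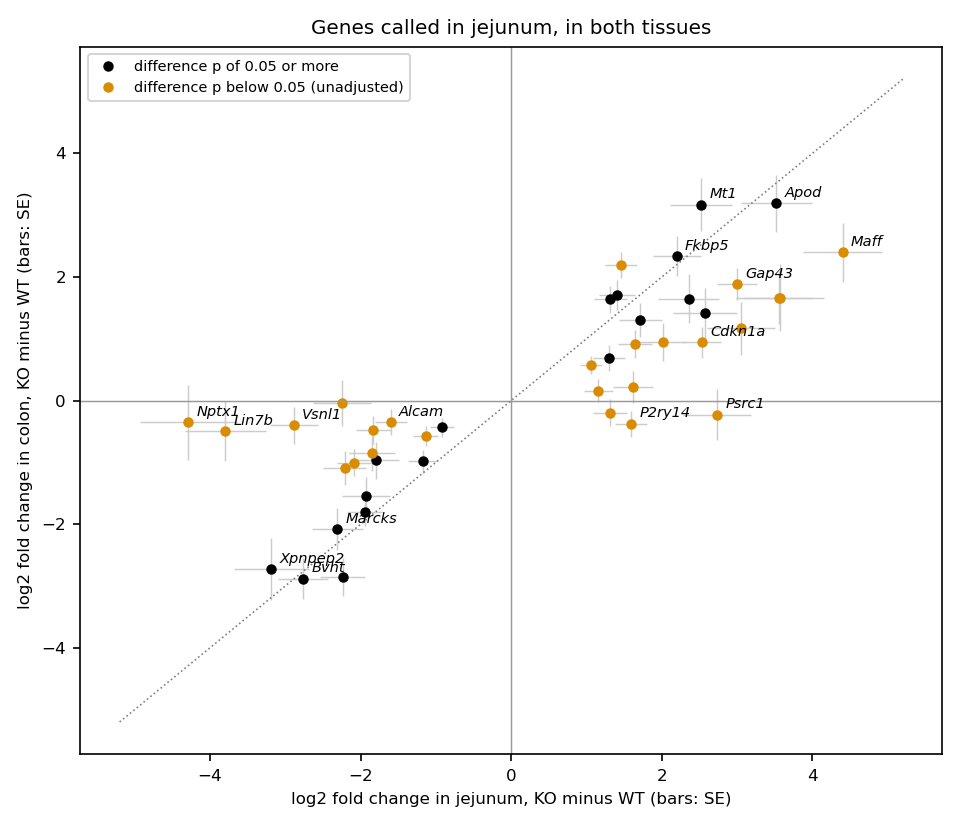
Log2 fold change, libraries labelled KO minus WT, in jejunum (x axis) and colon (y axis) for the 43 genes called in jejunum with counts in every group, with SE bars and a dotted line of equality. Orange points have an unadjusted p below 0.05 in the test of the difference, which includes the jejunum change by which the genes were selected. Apod, Mt1, Fkbp5 and Bvht lie near the line, and Vsnl1, Nptx1 and P2ry14 lie away from it with colon values near 0. Vsnl1 and Nptx1 were already low in WT colon, at no more than 2.34 CPM.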

How the data were processed

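For the 12 bulk libraries the authors deposited raw counts by Ensembl identifier in 1 table. STAR 2.0.4b, featureCounts 1.4.5 (Subread) and edgeR, with the builds GRCm38 and mm10, are named without roles in the submitters' processing notes, with no annotation version or strand setting given. Of 40757 entries 276 repeated an identifier and were dropped, and filterByExpr kept 20886 of 40481 genes. Coordinates and exon overlaps came from GENCODE M21 (99.7% of identifiers found). The test was that of edgeR 4.0.16 (R 4.3.3) (TMM, robust quasi-likelihood, 1 mean for each of the 4 groups of 3, two-sided, Benjamini-Hochberg adjustment over all genes). The contrasts were KO minus WT in jejunum and its difference from colon, with the threshold at an adjusted p of 0.05. SE was taken from the fold change and F, and log2 CPM used a prior count of 2. Genes were named by a rule: the Carmn locus, the 12 highest and 12 lowest called genes, the 4 smallest p of each list, the 4 smallest p of the tissue difference, the 6 genes highest and the 6 lowest in KO m1, the calls lost without it, and other list members as examples. Exceptions named after their values were seen are the remaining calls and those called without KO m1. Members and lists were chosen with earlier results of these data known, so lists have no test. The scripts were tested on simulated data. Alternatives (scaling, filter, DESeq2 1.42.0, limma 3.58.1, left-out libraries, replicate block) are given at the end. No 2 replicates matched to within counting error (chi-square per gene 73.0 or more).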

Additional observations from a re-analysis of the deposited data

How the results depend on the processing

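The count of 45 called genes became 47 with RLE size factors, 46 with trimmed TMM, 59 with no filter, 64 with a filter of 1 CPM and 26 with scaling by total counts. It was 805 by DESeq2, 87 by limma voom, 971 with sample quality weights and 21 from the 6 jejunum libraries alone. Leaving out 1 library in turn gave 2 to 172 calls, with 2 without KO jejunum t4 and 172 without KO colon t4. In alternatives chosen after seeing the data, DESeq2 without KO m1 called 454 genes, 348 of them among its 805, and leaving out tag m1 in both tissues gave 20. The tissue difference had 37 calls by DESeq2 and 0 to 1 with a library left out. Carmn passed the threshold with no filter (1.80), DESeq2 (1.82), limma voom (1.85) and quality weights (1.85), and ranged from 1.67 to 2.01 with a library left out.

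Jejunum KO and WT share 1 tag, t1. Same-tag libraries of 1 genotype, each pair from jejunum and colon, correlated in their deviations at -0.16 to 0.10. A low correlation across tissues cannot tell whether tags pair the samples. With the tag as a replicate block 0 genes were called by edgeR (1262 at an unadjusted p below 0.05, including all 45, each with the same sign), and 1 of 5 jejunum libraries correlated best with its own tag. The block reversed Apol8 (-0.96), Dmrta1 (-1.74), Gm12361 (-5.18), Hoxc8 (-1.01), Jun (0.053) and Mki67 (-0.50).

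None of the 45 calls reversed in any alternative. Among uncalled genes limma voom reversed Dmrta1 (-0.73), Gm12361 (-1.96) and Jun (0.067), and quality weights reversed Apoa4 (0.046), Dmrta1 (-1.74), Gm12361 (-3.79), Jun (0.14) and Mki67 (-0.077). With a library left out, signs differed over the range for Acta2 (-0.023 to 0.25), Ada (-0.89 to 0.32), Alpi (-1.06 to 0.026), Apoa4 (-0.48 to 0.40), Dmrta1 (-1.81 to 2.87), Gm12361 (-4.38 to 4.07) Jun (-0.28 to 0.44), Mki67 (-0.023 to 1.58), Postn (-0.28 to 2.59) and Stk36 (-0.13 to 4.95). The causes were not tested.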

Other observations

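Circadian genes and lipid genes varied between libraries within a group. Dbp, an output gene of the circadian clock, was at 11.7, 53.8 and 12.8 CPM in KO m1, t1 and t4 and at 55.4, 293 and 63.5 CPM in WT t1, t6 and t7 (log2 fold change -2.39, edgeR adjusted p = 0.363), and the clock repressor Nr1d1 at 37.0, 107 and 51.7 against 189, 154 and 243 (-1.58, 0.214). Of 20 circadian genes 7 were higher. None was called by edgeR (2 higher and 2 lower at an unadjusted p below 0.05), and DESeq2 called 1 in each direction. For all genes tested the shares were 7.52% higher and 5.7% lower at that p, and 3.85% called by DESeq2. The sources used here give no time of collection. The summed level of 10 adipocyte markers was 1882 CPM in KO t1, 1989 in WT t1 and 1870 in WT t6, and 190 to 225 CPM in KO m1, KO t4 and WT t7. Fasn and Scd1, enzymes of fat synthesis, were at 1331 and 1791 CPM in WT t1, at 1458 and 1648 in WT t6 and at 491 and 366 in WT t7, with KO t1 at 508 and 451 and the other 2 libraries labelled KO at 173 to 290 CPM. Lep, the leptin gene, was at 0.10, 0.19 and 0.02 CPM in KO m1, t1 and t4 against 9.5, 22.9 and 1.39 in WT (adjusted p = 0.0629).

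Genes with the widest gap between KO m1 and the mean of KO t1 and t4, among genes averaging 4 or more in log2 CPM, were Stk36 (282 CPM against 3.79 and 4.78), Gm12361 (1057 against 2.03 and 1.02), Themis3 (1818 against 50.1 and 15.0), Apol8 (186 against 0.30 and 2.90), Dmrta1 (100 against 3.82 and 0.54) and Hoxd13, given above. Lowest were Fabp1 (0.91 CPM against 57.3 and 31.7), Kcnip2, Lct, Alpi (5.08 against 75.0 and 55.3), Ada (9.85 against 107 and 62.0) and Apoa4 (49.0 against 439 and 473). The neuropeptide gene Vip was at 542 CPM in KO m1 and at 35.1 to 69.8 in the other 5 jejunum libraries, and 11 of 12 pancreas genes were highest in it. In all, 448 genes differed by more than 3 on the log2 scale between KO m1 and the other 2 libraries labelled KO, 284 higher and 164 lower.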
